A study of Drosophila melanogaster with 72 samples.

Results

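The genes described here are 10 members of the antioxidant defence of Drosophila melanogaster, measured by RNA sequencing of whole brains. They were chosen by name: the superoxide dismutases Sod1 (written Sod in the files), Sod2 and Sod3, the catalase gene Cat, the peroxidase gene PHGPx (current symbol Gtpx), the thioredoxin gene Trx-2 (current symbol Trx2), the glutathione synthesis genes Gclc and Gclm, and the regulators cnc and Keap1. All 10 were found among the 13898 listed genes, and all 10 passed the low-count filter in every comparison. The study covered 72 libraries in 24 groups of 3, each library made from a pool of 15 brains.

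Undisturbed flies of the strain iso31, housed at 25C under light/dark cycles, formed 6 groups dissected at zeitgeber time (ZT, hours after lights on) 0, 4, 8, 12, 16 and 20. In 3 other iso31 groups, sleep was disturbed for 3, 6 or 12 h by a vortexer that shook the flies for 2 s in every 20 s at random moments, and brains were taken at ZT0. The remaining 15 groups came from 5 GAL4 driver lines. In each line, flies carrying the driver and UAS-TrpA1, a heat-opened ion channel that excites the neurons it is expressed in, were either warmed to 29C (TrpA1 29C) or left at 21C without activation (TrpA1 21C), and flies with the driver but no UAS-TrpA1 were warmed as well (GAL4 29C). R21H11, R65H02, HC (hot cell) and R60F09 are labelled wake-promoting and were warmed for the last 3 h of the night before dissection at ZT0. R85C10 is labelled sleep-promoting, with 12 h of daytime warming before dissection at ZT12. The cells in which each driver acts, the sex and the age of the flies are not given in the labels. Replicates of the shaken and undisturbed groups are called biological. For the lines this is not stated, so their p-values measure the spread between pools, which may be technical.

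Superoxide dismutases turn superoxide, a by-product of respiration, into hydrogen peroxide: Sod1 acts in the cytosol, Sod2 in mitochondria and Sod3 outside cells. Hydrogen peroxide is then removed by catalase and by peroxidases that draw on glutathione or thioredoxin, and Gclc and Gclm form the enzyme that starts glutathione synthesis. In flies, the CncC form of the cnc protein switches on many of these genes, and Keap1 holds it back in the absence of oxidants. In the gut of sleep-deprived flies reactive oxygen species are known to build up, and neurons that promote sleep are known to sense oxidants in the fly brain.

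Total estimated counts ran from 4175587 to 13435817 per library, with a median of 8437310. The lowest estimated count of any of the 10 genes in any library was 67, for Keap1. Neuronal markers (elav, nSyb, brp, Syt1 and futsch) were present in every library, at a summed 1242 to 4153 TPM (transcripts per 1e+06 transcripts). Markers of tissue outside the brain proper varied more, from 69.7 to 4010 TPM for 7 fat body genes and from 9.27 to 5079 TPM for 5 photoreceptor genes, and no list was at 0 throughout. The 13 protein-coding mitochondrial genes took 1.68% to 9.17% of the counts. This share differed between groups: it was 2.62% at ZT0, 4.13% to 6.38% after shaking, 4.82% at ZT20, and in the wake-promoting lines 2.08% to 2.44% in GAL4 29C against 3.39% to 6.05% in TrpA1 21C. Changes are given with TMM scaling, and for many of them also after a correction for the trend of expression on gene length in each library. The 10 genes differ in length: Sod1, Trx-2, PHGPx, Sod2 and Sod3 lie between percentiles 14.8 and 26.3 of all genes, and cnc at percentile 92. In bulk tissue, fewer cells of a type and less RNA per cell cannot be told apart.

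Sod1 was by far the most abundant of these transcripts. Per length, its median over the 72 libraries was 1257 TPM, against 327 TPM for Sod3, 285 TPM for Trx-2, 253 TPM for PHGPx and 215 TPM for Sod2. Gclc (74.8 TPM), Gclm (69.2 TPM), cnc (51.1 TPM) and Cat (45.3 TPM) followed, and Keap1 was lowest at 13.4 TPM. In CPM (counts per 1e+06, scaled with TMM over all libraries), the enzymes varied between groups more than the regulators. The highest group mean stood at 4.36 times the lowest for Sod3, 4.29 times for Sod1 and 3.37 times for Cat. The ratio was 2.75 for PHGPx, 2.12 for Sod2, 2.06 for Gclm and Trx-2, 1.84 for Gclc, 1.59 for Keap1 and 1.35 for cnc. In TPM this order did not hold. Group means ran from 8.43 to 18.3 TPM for Keap1 and from 39.7 to 64.8 TPM for cnc. Sod2 (176 to 266 TPM), Trx-2 (249 to 382 TPM) and Gclm (55.8 to 83.0 TPM) ranged less than both in proportion. Sod3 (136 to 591 TPM), Sod1 (922 to 2761 TPM) and Cat (37.8 to 97.8 TPM) still ranged more. When the 24 CPM group means of a gene were put in order, neighbours differed by more than the sum of their SDs in at most 2 of the 23 steps. Ordering by value itself makes neighbouring means close, so this count cannot show whether groups differ. For cnc the median SD within a group was 6.15% of the mean. The exons of cnc overlap those of CG46310 and Irk1 on the opposite strand, and the library kit does not mark strand, so reads of these genes cannot be told apart; the gene-level value also sums all cnc isoforms.

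**Figure D1:**
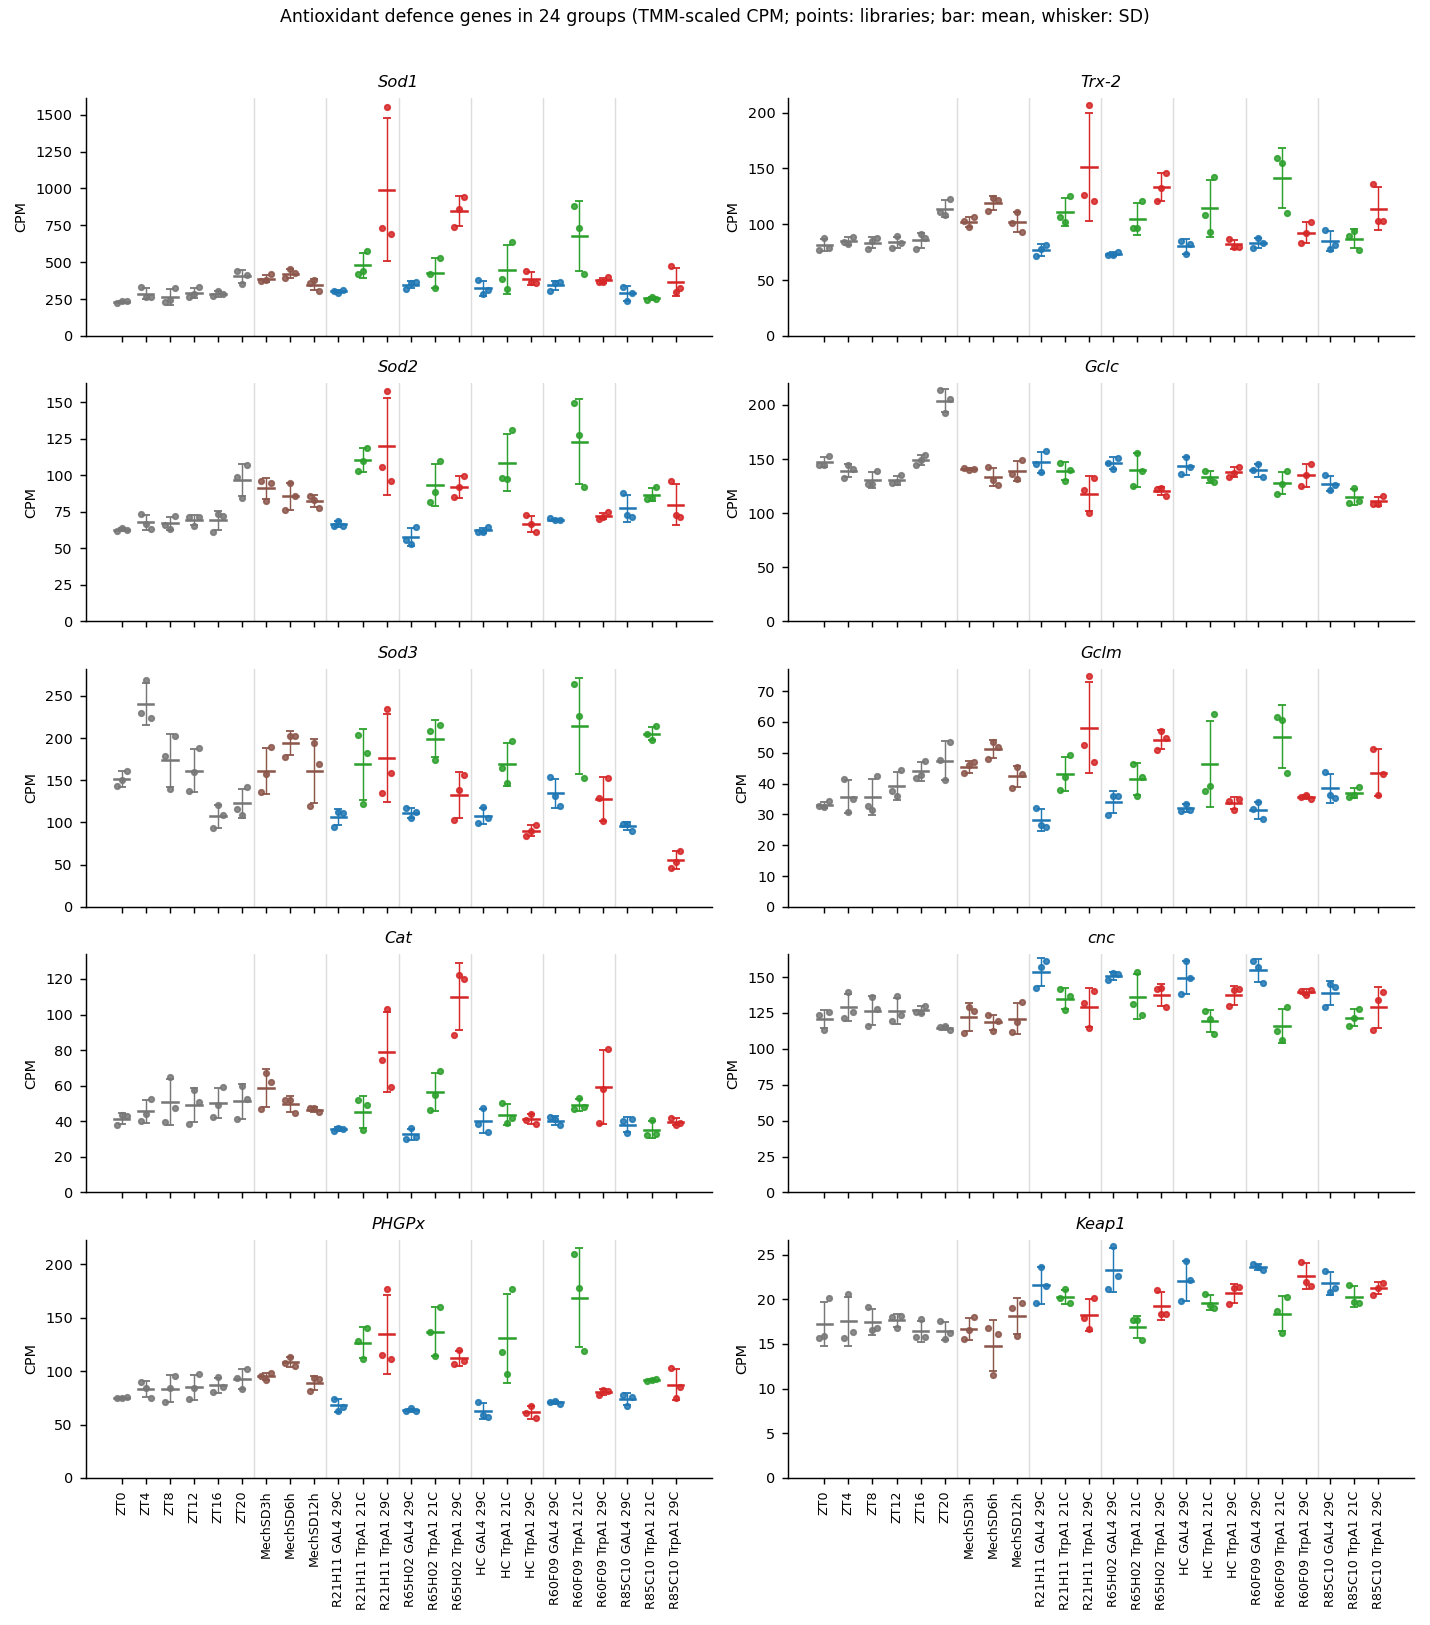
CPM of the 10 genes (one panel each, linear axis from 0) in the 24 groups, with 1 point per library, the mean as a bar and the SD as a whisker (grey: undisturbed, brown: shaken, blue: GAL4 29C, green: TrpA1 21C, red: TrpA1 29C). Sod1 reaches 847 CPM and 992 CPM on average in R65H02 and R21H11 TrpA1 29C, Gclc stands out at ZT20 with 204 CPM, and cnc stays between 115 CPM and 155 CPM.

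Sod1 was higher after mechanical sleep disturbance of every length than in undisturbed brains at ZT0. The 3 libraries at ZT0 held 221, 237 and 236 CPM, those after 3 h of shaking 372, 378 and 417 CPM, after 6 h 392, 452 and 424 CPM and after 12 h 357, 380.3 and 308 CPM. Every shaken library was above every ZT0 library. The means were 231 ± 8.82 CPM at ZT0 and 389 ± 24.3, 423 ± 30.1 and 348 ± 37.0 CPM after 3, 6 and 12 h (SD, n = 3). In edgeR's quasi-likelihood test the log2 change was 0.74 (SE 0.0755, adjusted p 4.25e-05) at 3 h, 0.85 (SE 0.0758, adjusted p 5.21e-07) at 6 h and 0.59 (SE 0.0755, adjusted p 3.91e-04) at 12 h. Corrected for length, they were 0.38, 0.25 and 0.24, each still past the threshold (edgeR adjusted p 0.00125, 0.00447 and 0.0387). The 3 durations share the ZT0 libraries, which belong to the undisturbed time series, so any difference between the experiments is part of each contrast. ZT0 also had the lowest Sod1 mean of the 24 groups. Undisturbed brains at ZT20 had 404 ± 44.8 CPM, within the range of the shaken means. At the other undisturbed times the means were 265 to 291 CPM.

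Of the 10 genes, 6 passed the threshold at 3 h, all higher, where 23.6% of all tested genes passed and 11.5% were higher. At 6 h, 5 were higher and 1 lower (all genes: 46.1% called, 23.7% higher, 22.5% lower), and at 12 h 5 were higher (16.3% called, 9.12% higher). Sod1, Sod2, PHGPx, Gclm and Trx-2 were higher at all 3 durations, which 6.78% of all tested genes were. The median log2 change of the 10 genes was 0.33, 0.38 and 0.21 at 3, 6 and 12 h, beside 0.03, 0.03 and 0.01 over all tested genes. Corrected medians were 0.12, 0.02 and 0.11, and 2, 3 and 1 of the 10 passed, beside 3.79%, 14.6% and 1.47% of all genes.

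Sod2, the mitochondrial enzyme, was also higher at each duration with TMM scaling. Its mean rose from 63.0 ± 1.20 CPM at ZT0 to 91.2 ± 7.33 CPM after 3 h, 85.6 ± 9.30 CPM after 6 h and 82.3 ± 4.22 CPM after 12 h (SD, n = 3), log2 changes of 0.53, 0.42 and 0.39 (edgeR adjusted p 5.13e-04, 6.71e-04 and 0.00679). The length correction left 0.23, -0.07 and 0.11, with no duration past the threshold. Sod3, the extracellular enzyme, did not pass at any duration: the mean was 151 ± 9.51 CPM in ZT0 brains, and 6 h of shaking left it at 194 ± 14.2 CPM (log2 change 0.33, edgeR adjusted p 0.143). Without the library MechSD12h replicate 1 the 6 h change of Sod3 passed (adjusted p 0.0282).

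Among the peroxide-removing genes, Cat passed at 3 h only, with 46.9, 67.0 and 62.1 CPM against 37.7, 43.5 and 43.0 CPM at ZT0, and the groups did not overlap. The change was 0.50 (SE 0.110, edgeR adjusted p 0.00474) and 0.45 with the length correction (adjusted p 0.0446). At 6 h and 12 h the Cat changes were 0.24 and 0.17 (edgeR adjusted p 0.0936 and 0.326); the 6 h change passed without MechSD3h replicate 1 (adjusted p 0.0284). Whether the 3 durations differ was tested without ZT0, and Cat did not pass that test (edgeR adjusted p 0.103), though without the library MechSD3h replicate 1 it did (adjusted p 0.00643). PHGPx rose by 0.33, 0.50 and 0.24 on the log2 scale. It was the 1 gene of the 10 that differed among the shaken groups (edgeR adjusted p 0.0221; all genes: 15.8%), highest at 6 h with 109 ± 4.65 CPM against 95.1 ± 3.32 and 89.0 ± 6.60 CPM (SD, n = 3). That call was lost without MechSD6h replicate 1 or 2 (adjusted p up to 0.123) and with the length correction (0.732). Without MechSD12h replicate 2, Sod1, Gclm and Trx-2 passed that test beside PHGPx (adjusted p 0.0145, 0.0437 and 0.0208). Trx-2, a small protein that returns electrons to peroxiredoxins, rose by 0.33, 0.53 and 0.32. The length correction took both close to 0 at every duration, between -0.05 and 0.03 for PHGPx and between -0.01 and 0.01 for Trx-2, none past the threshold.

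The subunits of glutamate-cysteine ligase were called in opposite directions at 6 h with TMM scaling. Gclm, the modifier subunit, rose from 33.1 ± 1.05 CPM to 51.1 ± 2.91 CPM after 6 h (SD, n = 3), with log2 changes of 0.45, 0.60 and 0.35 over the durations. The 6 h change kept its call with the length correction (0.27, edgeR adjusted p 0.0204), and the others did not (0.26, adjusted p 0.0585, and 0.17, adjusted p 0.292). Gclc, the catalytic subunit, was lower at 6 h (log2 change -0.17, edgeR adjusted p 0.0310), with 143, 131 and 126 CPM against 144, 144 and 153 CPM at ZT0, separate but close. That call was lost without MechSD3h replicate 3, MechSD6h replicate 2 or 3 or ZT0 replicate 3 (adjusted p up to 0.105), and with the length correction the value turned to 0.05. At 12 h, Gclm lost its call without MechSD12h replicate 2 or ZT0 replicate 1 (adjusted p up to 0.0612). Trx-2 lost it without those or ZT0 replicate 3 (up to 0.0680), and PHGPx without MechSD12h replicate 2 or 3 or any ZT0 library (up to 0.110).

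The regulators did not pass the test at any duration under TMM scaling. Levels of cnc were 121 ± 6.57 CPM at ZT0 and 119 ± 5.43 CPM after 6 h, and those of Keap1 17.2 ± 2.50 and 14.8 ± 2.85 CPM (SD, n = 3). Their log2 changes ran from -0.05 to 0.01 for cnc and from -0.25 to 0.08 for Keap1. For cnc, a long gene, the length correction gave 0.30 at 6 h, past the threshold (edgeR adjusted p 0.00633), while on log2 TPM the change was -0.26 (limma adjusted p 0.0390), so its direction depended on the scaling. Keap1 kept its sign at 6 h under each, at -0.16 with the length correction and -0.57 on log2 TPM, where it passed (limma adjusted p 0.0116). In TPM the median of all tested genes itself moved by -0.35 at 6 h and by -0.21 at 3 h and 12 h.

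**Figure D2:**
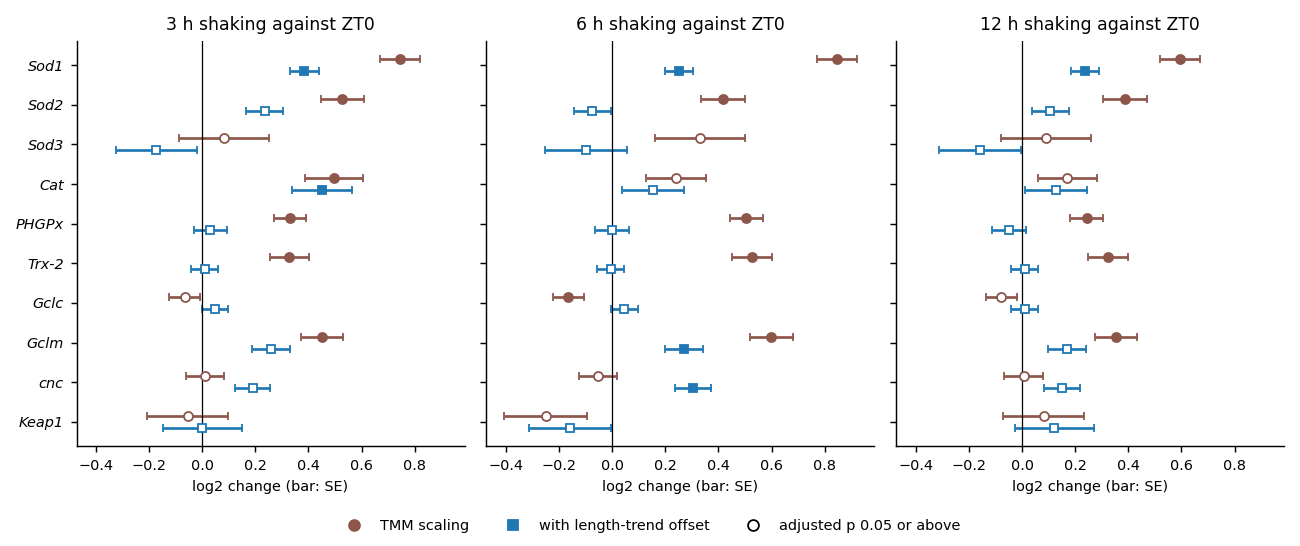
Log2 change against ZT0 (x axis, whisker: SE) of the 10 genes after 3, 6 and 12 h of shaking, with TMM scaling (brown circles) and with the length correction (blue squares); filled symbols have an edgeR adjusted p under 0.05. Sod1 is filled in all 6 positions, at 0.59 to 0.85 with TMM scaling and at 0.24 to 0.38 with the correction.

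Around these 10 genes, a list of 46 further genes of the same defence was counted, of which 37 could be tested in the shaken groups. At 3 h, 14 were higher and 1 lower, at 6 h 15 and 3, and at 12 h 6 and 1. That is 15, 18 and 7 of 37, beside 23.6%, 46.1% and 16.3% of all tested genes, so the 6 h and 12 h shares are near those of all genes. Higher at all 3 durations were Txl and Prx5 (thioredoxin-like and peroxiredoxin proteins), Grx1 (a glutaredoxin), Fer1HCH (a ferritin chain, which stores iron) and dj-1beta (a redox-sensitive protein). Their 6 h changes were 0.55, 0.58, 0.80, 0.53 and 0.65 (edgeR, each past the threshold). Corrected for length they were 0.16, -0.01, 0.08, 0.18 and 0.06, and only Fer1HCH still passed at 6 h. Cul3, the ubiquitin ligase scaffold that works with Keap1, was lower at all 3 with TMM scaling, with -0.46 at 6 h. Its value with the length correction is not given here. The summed neuronal markers moved with shaking, from 3415 to 3528 TPM at ZT0 to 1875 to 2027 TPM after 6 h, and glial markers from 1424 to 1590 TPM to 893 to 1069 TPM. Photoreceptor markers ran from 129 to 2686 TPM at ZT0 and from 26.0 to 74.9 TPM after 6 h. After 3 h, where Cat passed, photoreceptor markers ran from 64.9 to 3737 TPM and fat body markers from 235 to 2296 TPM, against 302 to 878 TPM at ZT0 and 88.4 to 320.2 TPM after 6 h for fat body. Their part in these results was not tested.

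Over the undisturbed day, Sod3 had its highest level early in the light phase. The libraries held 229, 269 and 224 CPM at ZT4 and 93.2, 120.5 and 109 CPM at ZT16, and these groups did not overlap. Mean levels were 151 ± 9.51 CPM at ZT0, 241 ± 24.6 at ZT4, 174 ± 31.4 at ZT8, 162 ± 25.6 at ZT12, 107 ± 13.7 at ZT16 and 123 ± 17.4 at ZT20 (SD, n = 3), with the lowest means in the dark. The difference among times passed edgeR's test (adjusted p 0.00124). It still passed with the length correction (adjusted p 2.63e-04), without the ZT20 group (0.031) and in a fit of a daily cosine wave (0.00214). Fat body markers also stood high at ZT4, at 423 to 4010 TPM against 302 to 878 TPM at ZT0. They summed to 1159 to 1956 TPM at ZT16, where Sod3 was lowest. Their part in the result was not tested.

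Of the 10 genes, 6 differed among the times of day (all genes: 15.1%). Besides Sod3 these were Gclc, Sod2, Trx-2, Sod1 and Gclm, each with its highest mean CPM at ZT20. Gclc had 213, 192 and 206 CPM at ZT20, above every other library of the study, while its means at the other times lay between 131 and 149 CPM (edgeR adjusted p 1.56e-06). This call held with the length correction (adjusted p 5.53e-07). Sod2 stood at 96.8 ± 11.2 CPM at ZT20 against 63.0 to 69.3 CPM at the other times (edgeR adjusted p 5.46e-04, with the length correction 0.0380). Sod1 had 404 ± 44.8 CPM at ZT20 against 231 ± 8.82 CPM at ZT0 (edgeR adjusted p 0.0125). Its call was lost without ZT20 replicate 1 or 3 (adjusted p up to 0.0918) and with the length correction (0.0529). Trx-2 had 114 ± 7.59 CPM at ZT20 and 81.3 to 85.7 CPM elsewhere (edgeR adjusted p 9.29e-04, with the length correction 0.389). On log2 TPM it did not pass (limma adjusted p 0.160).

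In CPM, Gclm was highest at ZT20 as well, with 47.4 ± 6.22 CPM against 33.1 ± 1.05 CPM at ZT0 (edgeR adjusted p 0.0310). It lost its call without any ZT0 library, ZT4 replicate 3, ZT16 replicate 2 or 3 or ZT20 replicate 1 or 3 (adjusted p up to 0.140), and with the length correction (0.134). In TPM its highest mean was at ZT16, 81.6 TPM, against 73.9 TPM at ZT20. On log2 TPM it did not pass (limma adjusted p 0.108). Without the ZT20 group, 1 of the 10 genes, Sod3, still differed among the times, beside 48 of 9201 tested genes (1400 of 9242 with it). Same-numbered libraries correlated above 0.1 in 44 of 45 pairs. With a block for replicate number the calls made on all times held, and Gclc also passed without ZT20 (edgeR adjusted p 0.0370, 255 of 9201 genes). With that block and the length correction Sod1 and Gclm passed (edgeR adjusted p 0.0441 and 0.0122). The ZT20 libraries carried 3.91% to 5.70% mitochondrial counts, against group means of 2.45% to 2.62% at the other times. Neuronal markers summed to 2486 TPM on average at ZT20 and to 3290 to 3487 TPM at the other times, and the part of either in these results was not tested. Cat, PHGPx, cnc and Keap1 did not pass (edgeR adjusted p 0.795, 0.451, 0.327 and 0.940). On log2 TPM cnc did pass (limma adjusted p 0.0115), as did 3601 of 9242 tested genes. Its means were 40.4 TPM at ZT20 and 49.4 to 51.5 TPM at the other times, so its call depended on the scaling. Group means ran from 41.4 to 51.1 CPM for Cat and from 75.3 to 92.9 CPM for PHGPx. Of the 46 further genes, 9 of the 39 tested differed among the times (all genes: 15.1%): Txl, Prx5, Grx1, GstE1, maf-S, Cul3, Fer1HCH, MsrA (which repairs oxidized methionine) and dj-1beta.

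**Figure D3:**
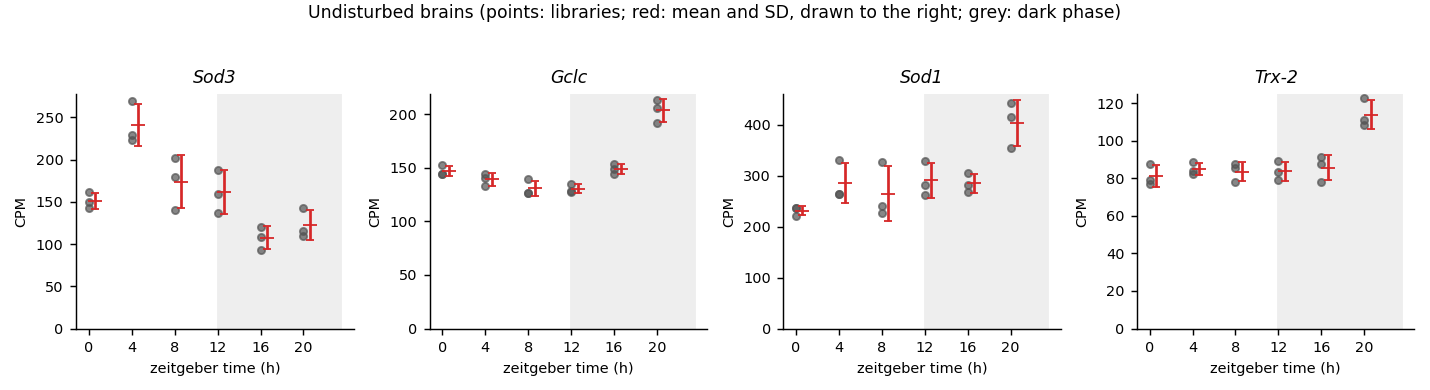
CPM (linear axis from 0) of Sod3, Gclc, Sod1 and Trx-2 in undisturbed brains by zeitgeber time (hours), with 1 grey point per library and the mean and SD in red beside them; the shaded part is the dark phase. Sod3 averages 241 CPM at ZT4 and 107 CPM at ZT16, while Gclc, Sod1 and Trx-2 have their highest mean at ZT20.

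Activated R65H02 brains had higher Cat and Sod1 than both of their controls. The contrasts with GAL4 29C and with TrpA1 21C share the TrpA1 29C libraries, here and in the other lines. Cat had 88.3, 122 and 120.0 CPM in TrpA1 29C, 30.3, 36.2 and 31.4 CPM in GAL4 29C and 46.5, 54.8 and 68.1 CPM in TrpA1 21C. Activated libraries lay above all 6 control libraries. The group means were 110.1 ± 18.9, 32.6 ± 3.11 and 56.4 ± 10.9 CPM (SD, n = 3). This was 3.34-fold higher than GAL4 29C (log2 change 1.74, SE 0.164, edgeR adjusted p 1.86e-05) and 1.96-fold higher than TrpA1 21C (0.97, SE 0.155, adjusted p 0.00134). Cat itself was lower in GAL4 29C than in TrpA1 21C (log2 change -0.77, adjusted p 0.00362). The length correction moved the Cat changes little, to 1.64 and 0.95. Sod1 had 737, 861 and 943 CPM in TrpA1 29C, 320.2, 358 and 364 CPM in GAL4 29C and 419, 328 and 529 CPM in TrpA1 21C, again without overlap. Its changes were 1.27 (SE 0.160, edgeR adjusted p 1.37e-04) and 0.997 (SE 0.159, adjusted p 0.00157), or 0.76 and 0.87 with the length correction. The calls of Cat and Sod1 against both controls held without any 1 of the 9 libraries.

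Of the 10 genes, 7 passed against GAL4 29C in R65H02 (6 higher, 1 lower; all genes 53.8%, 26.9% in each direction) and 6 against TrpA1 21C (4 higher, 2 lower; all genes 30.3%, 13.5% higher and 16.9% lower). Sod1, Cat, Gclm and Trx-2 were higher against both, as were 7.01% of all tested genes (17.5% in either direction). With the length correction these and cnc were called against both, and on log2 TPM Sod1, Cat and Trx-2 without Gclm. The share of all genes was not counted under these settings. Gclm rose by 0.67 and 0.39 and Trx-2 by 0.85 and 0.35 (edgeR adjusted p against TrpA1 21C 0.0159 and 0.0133). Against TrpA1 21C, Gclm lost its call without TrpA1 21C replicate 2 or TrpA1 29C replicate 2 or 3 (adjusted p up to 0.0660), and Trx-2 without TrpA1 29C replicate 3 (0.0642); without that library 2 of the 10 genes were left. Sod2 was 0.66 higher than in GAL4 29C (edgeR adjusted p 3.29e-04) and differed by -0.02 from TrpA1 21C (adjusted p 0.920). PHGPx was higher than in GAL4 29C (0.81) and lower than in TrpA1 21C (-0.28, edgeR adjusted p 0.0480, lost without any 1 library other than TrpA1 21C replicate 2, with adjusted p up to 0.174 and a change of -0.16 without TrpA1 21C replicate 3). Sod3 was lower than in TrpA1 21C (-0.59, edgeR adjusted p 0.0107, lost without TrpA1 21C replicate 3 at 0.0563) and differed by 0.23 from GAL4 29C (adjusted p 0.203, passing at 0.00506 without TrpA1 29C replicate 1). Gclc was lower than in GAL4 29C (-0.29, edgeR adjusted p 0.00684), and with the length correction the value was -0.02.

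Around them in R65H02, 15 of the 38 further genes tested were higher against both controls and none lower, beside 7.01% of all tested genes that were higher against both. For these further genes only values with TMM scaling are given. They included 4 of 9 thioredoxin and peroxiredoxin genes (Trxr1, Txl, Prx2 and Prx3), 4 of 8 glutathione genes (Gss1, Gss2, GstD1 and GstE1) and 4 of 5 partners of CncC and Keap1 (maf-S, Roc1a, ref(2)P and crc). The others were Idh, an enzyme that makes NADPH, and the ferritin chains Fer1HCH and Fer2LCH. GstD1, a glutathione transferase often used as a reporter of CncC activity in flies, rose by 1.69 and 1.41 (edgeR adjusted p 7.97e-04 and 0.00420). Reads that fit several members of its family could be shared out in the authors' counting, so its value is less certain. For maf-S, which encodes the small Maf partner of CncC, the changes were 1.02 and 0.93, and for Idh 0.93 and 0.79. The regulators cnc and Keap1 themselves passed against neither control under TMM scaling (-0.14 and 0.02 for cnc, -0.28 and 0.19 for Keap1). The length correction gave cnc 0.31 and 0.18, both past the threshold (edgeR adjusted p 0.00168 and 0.0329). Fat body markers summed to 503 to 1729 TPM in TrpA1 29C, 126 to 851 TPM in GAL4 29C and 201 to 1421 TPM in TrpA1 21C, with 6, 5 and 6 of the 7 detected in all 3 libraries. Neuronal markers summed to 2034 to 2413, 3933 to 4153 and 2349 to 2852 TPM in the same order, and the mitochondrial share averaged 4.99%, 2.21% and 3.39%. Their part in these results was not tested.

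Activated R21H11 brains had higher means than their controls for the same genes, with 1 library far above the others. Sod1 had 732, 1549 and 693 CPM in TrpA1 29C, 308, 293 and 309 CPM in GAL4 29C and 421, 440.2 and 573 CPM in TrpA1 21C. Activated libraries were above all controls, but replicate 2 stood far above the other two and also carried the highest mitochondrial share of its group, 6.54%. The change against GAL4 29C was 1.71 (SE 0.281, edgeR adjusted p 0.00351). That against TrpA1 21C, 1.07 (SE 0.276, adjusted p 0.0606), did not pass. Without replicate 2 the change against TrpA1 21C was 0.59 and passed (adjusted p 0.0117), and it also passed without TrpA1 29C replicate 1 or 3. Corrected for length it was 0.72 (adjusted p 0.00991). Cat had 74.5, 103 and 59.3 CPM in TrpA1 29C against 34.6, 36.5 and 35.9 and 51.9, 35.1 and 49.2 CPM in the controls, without overlap. Its changes were 1.14 (edgeR adjusted p 0.00351) and 0.81 (adjusted p 0.0518), the second just short of the threshold, and with the length correction 0.75 (adjusted p 0.0378). Without TrpA1 29C replicate 3, Cat passed against TrpA1 21C as well (adjusted p 0.0262).

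Against GAL4 29C, 8 of the 10 genes passed in R21H11 (7 higher, 1 lower; all genes 47.2%, 25.1% higher and 22.1% lower), and against TrpA1 21C none did in edgeR's test (all genes 3.03%). Against both controls the count was therefore 0, where 1.45% of all tested genes passed. At an unadjusted p under 0.05 against both it was 4 (Sod1, Cat, Gclm and Trx-2), and in DESeq2 2 (Sod1 and Cat). The share of all genes called against both was not counted under either of these rules, so these counts cannot show whether the 10 genes stand out. DESeq2 called 914 of 8890 genes against TrpA1 21C, where edgeR called 269. The higher genes against GAL4 29C beside Sod1 and Cat were Gclm (1.04), PHGPx (0.98), Trx-2 (0.97), Sod2 (0.84) and Sod3 (0.72). Gclc was lower (-0.32, edgeR adjusted p 0.0494). Sod3 lost its call without TrpA1 29C replicate 2 or any GAL4 29C library (adjusted p up to 0.128), and Gclc lost it without any GAL4 29C library, TrpA1 21C replicate 2 or 3 or TrpA1 29C replicate 2 (up to 0.114). After correction for length Sod2, Sod3 and Trx-2 no longer passed (0.16, 0.10 and 0.24) and Gclc was 0.03. The regulator cnc had -0.25 with TMM scaling (edgeR adjusted p 0.0803, passing at 0.0301 without TrpA1 29C replicate 3) and 0.33 with the length correction (adjusted p 0.0315), so its direction depended on the scaling. With TMM scaling, 4 of the 37 further genes tested were higher against both controls (all genes: 1.45% in either direction). Among them were GstD1 (1.41 and 1.11), maf-S (1.11 and 0.86) and Idh (0.62 and 0.58), each also higher against both in R65H02. The other was DJ-1alpha (0.47 and 1.13). Fat body markers summed to 744 to 1779 TPM in TrpA1 29C, 73.6 to 581 TPM in GAL4 29C and 98.1 to 1014 TPM in TrpA1 21C. Their part in these results was not tested.

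In HC and R60F09, none of the 10 genes passed against the GAL4 29C control in edgeR. No gene of the 10 was called against both controls in edgeR or DESeq2 in either line. In edgeR, 0.523% and 0.0898% of all tested genes were. At an unadjusted p under 0.05 against both, 1 (Sod3) was in HC and 0 in R60F09. The share of all genes under that rule was not counted, so these counts cannot show whether the 10 genes stand out. Against GAL4 29C alone, 0.989% and 0.247% of all genes passed. Sod1 had 389 ± 45.1 CPM in HC TrpA1 29C and 323 ± 49.6 CPM in GAL4 29C (log2 change 0.27, edgeR adjusted p 0.620), and 377 ± 17.3 and 343 ± 31.8 CPM in R60F09 (0.12, adjusted p 0.922). Cat in R60F09 TrpA1 29C was spread widely, at 38.9, 58.3 and 80.4 CPM against 42.2, 41.4 and 37.7 CPM in GAL4 29C, and did not pass (0.53, edgeR adjusted p 0.515).

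**Figure D4:**
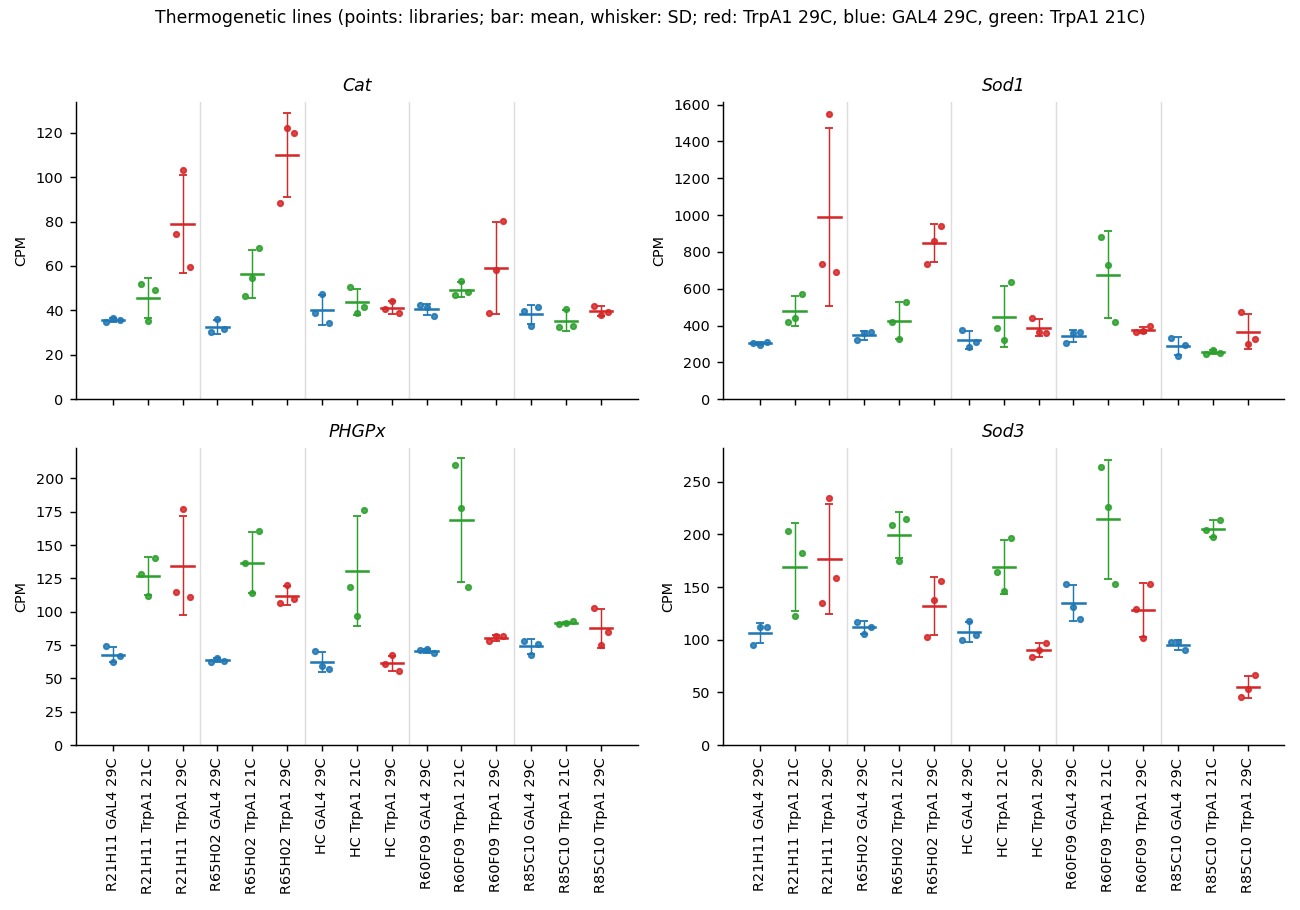
CPM (linear axis from 0) of Cat, Sod1, PHGPx and Sod3 in the 15 groups of the driver lines, with 1 point per library, the mean as a bar and the SD as a whisker. Cat and Sod1 are highest in R65H02 and R21H11 TrpA1 29C, PHGPx is high in TrpA1 21C of the 4 wake-promoting lines, and Sod3 is lowest in R85C10 TrpA1 29C at 55.2 CPM.

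PHGPx marked the difference between the controls themselves. In the 4 wake-promoting lines its TrpA1 21C means were 127 ± 14.4 CPM (R21H11), 137 ± 23.1 CPM (R65H02), 130.5 ± 41.2 CPM (HC) and 169 ± 46.2 CPM (R60F09), SD with n = 3. The GAL4 29C means were 67.9 ± 5.79, 63.6 ± 1.42, 62.4 ± 7.36 and 70.7 ± 1.74 CPM in the same order, and no GAL4 29C library reached the TrpA1 21C libraries of its line. The log2 changes of GAL4 29C against TrpA1 21C were -0.88, -1.09, -1.05 and -1.22 (edgeR adjusted p 0.0147, 6.66e-06, 0.00237 and 2.40e-04), beside 16.5%, 48.3%, 33.4% and 48.9% of all genes called (9.72%, 24.3%, 17.5% and 24.4% lower). Corrected for length they were -0.47, -0.75, -0.66 and -0.63, all still past the threshold. In R21H11 the call was lost without GAL4 29C replicate 1 or 2 or TrpA1 21C replicate 3 (adjusted p up to 0.0721). These controls differ in temperature and in the presence of UAS-TrpA1, so effects of temperature and of genotype cannot be told apart. Neuronal markers moved with this contrast: their summed means were 3680 to 4049 TPM in GAL4 29C and 1981 to 2544 TPM in TrpA1 21C over these 4 lines, and 3724 and 3709 TPM in R85C10. Their part in the results on these controls was not tested.

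Sod2 showed the same order. GAL4 29C differed from TrpA1 21C by -0.71, -0.67, -0.80 and -0.78 in R21H11, R65H02, HC and R60F09 (edgeR adjusted p 0.0213, 3.82e-04, 5.55e-04 and 9.14e-04), and by -0.31, -0.35, -0.42 and -0.21 with the length correction, still past the threshold. In R21H11 the call of Sod2 was lost without any GAL4 29C library or TrpA1 21C replicate 3 (adjusted p up to 0.0974). For Sod3 the changes were -0.82, -0.65 and -0.64 in R65H02, HC and R60F09, each past the threshold, and -0.65 in R21H11 (edgeR adjusted p 0.0652), which was not. The R21H11 change passed without TrpA1 21C replicate 2 or TrpA1 29C replicate 1 or 2 (adjusted p down to 0.0323). The R60F09 value was -0.12 with the length correction (adjusted p 0.648). That R60F09 call was also lost without GAL4 29C replicate 2 or 3 or TrpA1 21C replicate 1 or 2 (adjusted p up to 0.0911).

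Other members passed in some of the lines in this contrast of the controls, and whether the lines differ in it was not tested. Gclm was lower in GAL4 29C in R21H11, HC and R60F09 (-0.59, -0.53 and -0.78), Trx-2 in R65H02, HC and R60F09 (-0.50, -0.51 and -0.73), and Sod1 in R60F09 (-0.95; edgeR adjusted p 0.00416). The regulators were higher where they passed: cnc in HC and R60F09 (0.33 and 0.45), and Keap1 in R65H02 and R60F09 (0.47 and 0.39). With the length correction cnc was 0.04 and -0.02 in HC and R60F09. Gclm lost its call without any control library in R21H11 (edgeR adjusted p up to 0.180), and in HC without any GAL4 29C library or TrpA1 21C replicate 3 (up to 0.0860). Without GAL4 29C replicate 2, cnc and Trx-2 lost theirs in HC (0.0640 and 0.0559), and Keap1 lost its R60F09 call without any GAL4 29C library or TrpA1 21C replicate 2 (up to 0.0973). Calls were also gained when 1 library was left out. Sod1 passed in R21H11 without TrpA1 29C replicate 2 (-0.64, edgeR adjusted p 5.84e-04), in HC without TrpA1 21C replicate 2 (-0.64, 0.0301) and in R65H02 without TrpA1 21C replicate 2 (-0.42, 0.0156). In R65H02, Gclm and cnc passed without that same library (-0.36 and 0.27, edgeR adjusted p 0.0161 and 0.00733). Trx-2 passed in R21H11 without TrpA1 29C replicate 2 (-0.51, edgeR adjusted p 9.85e-04), and PHGPx in R85C10 without TrpA1 29C replicate 1 (-0.32, 0.0257). Gclc passed in none of the 5 lines with all libraries, and in R60F09 without TrpA1 21C replicate 3 (0.21, edgeR adjusted p 0.0357).

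Activated HC and R60F09 brains stood on the side of GAL4 29C. Against TrpA1 21C, 5 of the 10 genes were lower in HC (all genes 33.5%, 17.6% lower), and in R60F09 6 were lower and 1 higher (all genes 44.7%, 22.4% lower and 22.3% higher). PHGPx changed by -1.08 and -1.05 in HC and R60F09, Sod2 by -0.69 and -0.75, and Sod3 by -0.90 and -0.73 (log2; edgeR adjusted p for Sod3 1.64e-04 and 0.0132). Gclm and Trx-2 were lower in both lines too, and Sod1 in R60F09 (-0.82, edgeR adjusted p 0.00958), where TrpA1 21C held 879.7, 731 and 417 CPM. The length correction took the R60F09 change of Sod1 to -0.17 (adjusted p 0.246). With that correction Sod2, Sod3 and PHGPx still passed in HC, and Sod2, PHGPx and Gclm in R60F09. In HC, Gclm lost its call without any GAL4 29C or TrpA1 29C library or TrpA1 21C replicate 3 (adjusted p up to 0.159, with a change of -0.19 without the last) and Trx-2 without TrpA1 29C replicate 2 or 3 (up to 0.0569). In R60F09, Sod3 lost it without TrpA1 21C replicate 1 or 2 (up to 0.0587), and the rise of cnc (0.28, adjusted p 0.0261) without TrpA1 21C replicate 1 or 2 or any TrpA1 29C library (up to 0.102). Its value with the length correction was -0.10. The 3 R60F09 TrpA1 21C libraries carried 3.96% to 9.17% mitochondrial counts, the TrpA1 29C libraries 1.69% to 2.01%.

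R85C10, the line labelled sleep-promoting, differed from both controls in 1 of the 10 genes, Sod3. It had 45.5, 53.6 and 66.4 CPM in TrpA1 29C, 97.9, 98.2 and 89.9 CPM in GAL4 29C and 204, 198 and 214 CPM in TrpA1 21C. The 3 groups formed 3 separate levels without overlap, and the TrpA1 29C mean, 55.2 ± 10.5 CPM (SD, n = 3), was the lowest of the 24 group means. Sod3 changed by -0.78 against GAL4 29C (SE 0.113, edgeR adjusted p 0.00182) and by -1.88 against TrpA1 21C (SE 0.113, adjusted p 2.69e-07) on the log2 scale, while 0.391% of all tested genes were lower against both (0.955% in either direction). GAL4 29C itself differed from TrpA1 21C by -1.10 (adjusted p 3.28e-05), a contrast in which 9.02% of all genes passed, 4.85% lower. The calls of Sod3 against both controls held under every alternative run, including the length correction (-0.89 and -2.05), DESeq2, log2 TPM (-0.90 and -2.04) and leaving out any 1 of the 9 libraries. Undisturbed iso31 brains at the same time of day, ZT12, had 162 ± 25.6 CPM.

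Against GAL4 29C, Sod3 was the 1 gene of the 10 that passed in R85C10 (all genes 1.44%, 0.587% lower), and against TrpA1 21C Sod3 and Trx-2 passed (all genes 18.7%, 9.27% lower and 9.44% higher). Trx-2 was higher than in TrpA1 21C by 0.40 (edgeR adjusted p 0.0382) with 114 ± 19.2 against 86.8 ± 8.53 CPM (SD, n = 3), and did not pass against GAL4 29C (0.43, adjusted p 0.141). At an unadjusted p under 0.05 against both controls, the count was 2, Sod3 and Trx-2. As the share of all genes under that rule was not counted, this count cannot show whether the 10 genes stand out. The call of Trx-2 against TrpA1 21C was lost without GAL4 29C replicate 3, any TrpA1 21C library or TrpA1 29C replicate 1 (adjusted p up to 0.161). Cat was at 39.8 ± 2.10, 38.2 ± 4.40 and 35.3 ± 4.66 CPM in TrpA1 29C, GAL4 29C and TrpA1 21C, and Sod1 did not pass against TrpA1 21C (0.53, edgeR adjusted p 0.0517) unless GAL4 29C replicate 2 or TrpA1 29C replicate 2 was left out (adjusted p down to 0.0202). None of the 37 further genes tested was called against both controls. Glial markers summed to 1410 to 1671 TPM in TrpA1 29C, 1523 to 1844 TPM in GAL4 29C and 2154 to 2244 TPM in TrpA1 21C, and fat body markers to 112 to 217, 184 to 356 and 295 to 790 TPM. Their part in the Sod3 result was not tested.

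**Figure D5:**
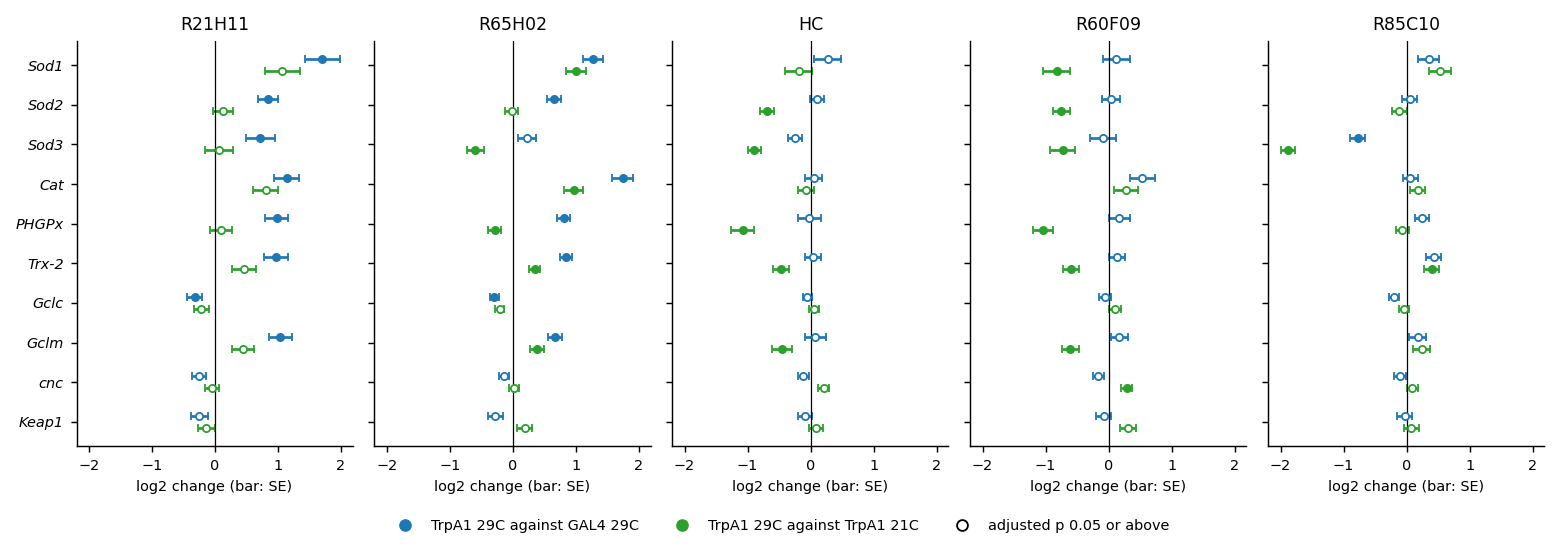
Log2 change (x axis, whisker: SE) of the 10 genes in TrpA1 29C of each line against GAL4 29C (blue) and against TrpA1 21C (green), with filled circles for an edgeR adjusted p under 0.05. Both circles are filled and above 0 for Sod1, Cat, Trx-2 and Gclm in R65H02, and both are filled and below 0 for Sod3 in R85C10 (-0.78 and -1.88).

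Averaged over the 4 wake-promoting lines in 1 fit, Cat was the 1 gene of the 10 that rose against both controls, by 0.88 (SE 0.1004, edgeR adjusted p 1.82e-07) against GAL4 29C and by 0.50 (SE 0.0985, adjusted p 1.39e-04) against TrpA1 21C, beside 5.71% of all tested genes (10.9% in either direction). The Cat calls held with the length correction (0.79 and 0.49) and without any 1 replicate number. Against GAL4 29C alone, 6 of the 10 genes were higher and 3 lower (all genes 56.9%, 31.2% higher and 25.6% lower), and against TrpA1 21C 2 were higher and 3 lower (all genes 44.3%, 22% and 22.4%). Sod1 averaged 0.85 and 0.27, the second not past the threshold (edgeR adjusted p 0.0971). Without replicate 3 of each group it was 0.40 and passed (adjusted p 0.0219), and with the length correction it was 0.40 (adjusted p 1.12e-05). PHGPx was higher than GAL4 29C (0.49) and lower than TrpA1 21C (-0.57). Sod3 averaged -0.53 against TrpA1 21C (edgeR adjusted p 1.01e-04) and 0.17 against GAL4 29C (adjusted p 0.167). Changes of cnc and Keap1 were small: -0.16 and 0.12 for cnc, -0.16 and 0.12 for Keap1. Against GAL4 29C, cnc was called lower with TMM scaling and higher with the length correction (0.12, edgeR adjusted p 0.00606), so its direction depended on the scaling. The cnc call against TrpA1 21C was lost without any replicate number (adjusted p up to 0.161), and that of Keap1 against GAL4 29C without replicate 2 (0.257).

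The lines did not share 1 response. In a test of equal effects across the 4 wake-promoting lines, the effect differed between lines for Sod1, Sod2, Sod3, Cat, PHGPx, Gclm and Trx-2, 7 of the 10, against either control (all genes 36.7% for GAL4 29C and 41.6% for TrpA1 21C). For Cat the effect against GAL4 29C was 1.74 in R65H02, 1.14 in R21H11, 0.53 in R60F09 and 0.05 in HC (edgeR adjusted p 7.62e-04 for equal effects). For Sod1 it was 1.27, 1.71, 0.12 and 0.27 in the same order (adjusted p 0.00368). Without replicate 2 the counts fell to 0 (GAL4 29C) and 1 (TrpA1 21C), and without replicate 1 to 1 and 3. With the length correction Sod1, Cat, cnc, PHGPx, Gclm and Trx-2 differed between the lines against either control. Of all 9452 tested genes, 1637 (GAL4 29C) and 1535 (TrpA1 21C) then did.

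Across the 24 group means, the 10 genes did not move as 1 block. Of their 45 pairs, 20 had a Pearson r above 0 in log2(TPM + 1), with a median r of -0.08. The highest r was 0.90, between cnc and Keap1, and next came Sod1 with Trx-2 at 0.72 and Sod2 with PHGPx at 0.68. The lowest was -0.69, between PHGPx and Gclc. These values describe groups that share libraries' depth and length trend, so they carry no test. Among 7848 genes, a number that includes the 10 members, the genes other than members most like Sod1 were Ssb-c31a (r 0.93) and Cyt-b5 (0.91). Sod2 was most like UQCR-14 (0.85), a subunit of respiratory complex III, and Sod3 most like CG9377 (0.80). Cat was most like CG9512 (0.80), cnc most like smid (0.95), Keap1 most like Grip163 (0.97) and PHGPx most like AnxB10 (0.93). Gclc was most like Gmap (0.88), Gclm most like CG14075 (0.74) and Trx-2 most like CG30373 (0.87).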

How the data were processed

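Whole-brain RNA from 72 pools of 15 brains was sequenced after PicoPure extraction and NEBNext Ultra II library preparation, per the labels' protocols. The authors deposited an estimated count and a TPM value per gene and library. Kallisto 0.46.1 is named in the submitters' processing notes; the genome build is not given in the sources used here. The estimated counts were rounded (89.0% lay within 0.02 of a whole number).

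Genes passing filterByExpr were fitted with edgeR 4.0.16 (TMM, robust quasi-likelihood; R 4.3.3) in 8 fits: shaken groups with ZT0 (8845 genes), zeitgeber times (9242), each driver line (8688 to 9020) and the 4 wake-promoting lines together (9452). Benjamini-Hochberg adjusted p-values were taken over every gene tested in a fit and called below 0.05. Alternatives were DESeq2 1.42.0, RLE scaling, no filter, an offset for the trend on gene length (lowess span 0.3), limma 3.58.1 on log2(TPM + 1) of the deposited TPM values, a replicate block, and leaving out each library. The tests were tried on simulated data. The closest replicates differed by 2.72 chi-square units per gene, so none was taken for a repeat.

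Members and gene lists were chosen with earlier results of these data known. Further genes are named where called against both controls in 2 or more lines, at all 3 durations of shaking with 1 sign, or among zeitgeber times; DJ-1alpha and the rest of the called R65H02 genes were named after their values were seen. The gene most like a member has the highest Pearson r over the 24 group means, among genes with a mean of at least 5 TPM; Cyt-b5 is the next after it for Sod1. In no fit did every same-numbered pair of samples correlate above 0.1, so samples were not treated as paired in the main tests. Among zeitgeber times 44 of 45 such pairs did, with a mean r of 0.367 against -0.182 for other pairs. The main p-values among zeitgeber times leave out this structure, and a replicate block was run as an alternative. Current symbols and overlaps of exons came from a reference annotation, whose coordinates were not used. Intervals of counting error are not given, since spread between libraries was used.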

Additional observations from a re-analysis of the deposited data

Results flagged for a closer look

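The effect of activation differed between the 4 wake-promoting lines for 7 of the 10 genes against each control, by edgeR's test of equal effects in 1 fit of the 12 groups. Against GAL4 29C the adjusted p-values were 0.00368 for Sod1, 0.00768 for Sod2, 0.0364 for Sod3, 0.000762 for Cat, 0.00872 for PHGPx, 0.007 for Gclm and 0.0027 for Trx-2. Against TrpA1 21C they were 0.000445 for Sod1, 0.00127 for Sod2, 0.029 for Sod3, 0.00875 for Cat, 0.000939 for PHGPx, 0.000542 for Gclm and 0.000409 for Trx-2. With TMM scaling, R21H11 and R65H02 lay on the higher side for Sod1, with 1.07 and 0.997 against TrpA1 21C. HC and R60F09 lay on the lower side, with -0.19 and -0.82. In TPM, Sod1 averaged 1541 in HC TrpA1 29C against 1359 in TrpA1 21C, so the side of HC depended on the scaling. In R60F09 these means were 1492 and 1767 TPM. The mitochondrial share of counts moved with the lines, at 4.50% and 4.99% in TrpA1 29C of R21H11 and R65H02 and at 1.98% and 1.84% in HC and R60F09, and its part in the difference was not tested. With the length correction Sod2 and Sod3 no longer differed between the lines against GAL4 29C (adjusted p 0.283 and 0.498) or TrpA1 21C (0.226 and 0.237). Without replicate 2 of every group, 0 of the 10 genes passed against GAL4 29C in edgeR, and 1 against TrpA1 21C.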

How the results depend on the processing

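With the correction for gene length, 2 instead of 6 passed at 3 h of shaking, 3 instead of 6 at 6 h and 1 instead of 5 at 12 h, 0 instead of 1 differed among the shaken groups, and 3 instead of 6 among zeitgeber times. Over all genes the correction gave 335, 1289 and 130 of 8845 at 3, 6 and 12 h, instead of 2091, 4078 and 1440. Among the shaken groups 238 instead of 1397 genes passed, and among zeitgeber times 477 instead of 1400 of 9242. The correction gave 2 instead of 0 against both controls in R21H11 and 2 instead of 1 for the mean of the wake-promoting lines. Against TrpA1 21C alone in R21H11 it called 820 of 8890 genes, instead of 269. Counts over all genes against both controls were not made under the alternatives. On log2 TPM in limma the counts were 3 at 3 h, 2 at 12 h, 0 among the shaken groups, 1 in R21H11 and 3 for the mean of the lines. Of all 8845 genes, 3072 passed at 3 h, 2639 at 12 h and 1735 among the shaken groups. That scale itself moved the median of all genes, by 0.47 in R60F09 against TrpA1 21C and by -0.32 in R21H11 against GAL4 29C. DESeq2 gave 2 among the shaken groups (1550 of 8845 genes) and 2 in R21H11, and RLE scaling and no low-count filter gave 1 each in R21H11. Against TrpA1 21C alone in R21H11, these 3 settings called 914 of 8890, 268 of 8890 and 329 of 12857 genes. Without ZT20, 1 gene differed among zeitgeber times (all genes: 48 of 9201), and with cosine terms 2 (all genes: 159 of 9242). Same-numbered libraries moved together among zeitgeber times, where 44 of 45 such pairs correlated above 0.1 and the lowest at 0.0531. Their mean r was 0.367, against -0.182 for other pairs. In the fit of the shaken groups 8 of 18 same-number pairs lay above 0.1 (mean r 0.0428), and in R85C10 4 of 9 (mean r 0.0792). In the 4 wake-promoting lines the mean r was between -0.0792 and -0.0267. A replicate block gave 2 in R85C10 (Sod3 and Trx-2), and among zeitgeber times 2 without ZT20 (Sod3 and Gclc, adjusted p 0.0370 for Gclc) and 3 with cosine terms. Over all genes these 2 zeitgeber fits called 255 of 9201 and 264 of 9242. Together with the length correction the block gave 2, 3 and 0 at 3, 6 and 12 h, 0 among the shaken groups, 1 in R21H11 and 2 for the mean of the lines. Among zeitgeber times Gclm and Sod1 then passed (edgeR adjusted p 0.0122 and 0.0441). Over all genes, 282, 1227 and 80 of 8845 passed at 3, 6 and 12 h, 164 among the shaken groups and 1113 of 9242 among zeitgeber times.

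Signs reversed for some genes, given as log2 changes with the length correction and then with it and the replicate block. At 6 h these were Sod2 (-0.0747 and -0.0740), cnc (0.30 and 0.31), Gclc (0.0454 and 0.0467) and Trx-2 (-0.00645 and -0.00662), with PHGPx at -0.000269 under the correction alone; at 12 h PHGPx (-0.0485 and -0.0493). In the lines, Gclc in R21H11 against GAL4 29C was 0.0260 and 0.0270, and cnc was 0.33 there (correction alone), 0.31 and 0.31 in R65H02 against GAL4 29C, -0.10 and -0.10 in R60F09 against TrpA1 21C, -0.0208 and -0.0224 in R60F09 GAL4 29C against TrpA1 21C and 0.12 and 0.12 for the mean against GAL4 29C. On log2 TPM, Sod2 at 6 h was -0.0130, PHGPx at 12 h -0.0386, and Trx-2 0.0102 in R60F09 and 0.15 for the mean of the lines, both against TrpA1 21C. The cause was not tested. In all, 1481 values kept their call, or their lack of one, under settings other than leaving out libraries. Another 71 gained and 142 lost a call, and 26 reversed. With libraries left out 1975 kept their call or lack of one, 30 gained and 125 lost a call. A reversal was counted only where a call was involved, so values without a call could change sign uncounted. Tests among several groups have no direction.

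Leaving out 1 library, or 1 replicate number in the joint fit of the lines, gave counts of 2 to 5 at 12 h, 0 to 4 among the shaken groups, 0 to 2 in R21H11, 2 to 5 in R65H02 and 1 to 2 for the mean of the lines. Tests of differences between lines gave 0 to 6 against GAL4 29C and 1 to 8 against TrpA1 21C. Counts over all genes were not made with libraries left out. With 3 pools a group, a missed threshold does not show that levels were alike.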
